A study of Mus musculus with 6 samples.

Results

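The interferon-inducible p200 family was examined through 4 genes, Ifi202b, Ifi204, Ifi207 and Ifi209, in mouse peritoneal exudate cells, a macrophage-rich preparation. Its members were taken as every probe set whose platform symbol is 1 of these genes, which gave 6 of the 12488 probe sets, for 4 of the 8251 genes that have a probe set of their own. Another 2 probe sets that the platform assigns to several genes, 1 of them including Ifi202b and 1 including Ifi204, are given beside them as ambiguous. The family was chosen by its signals on these arrays, among them that of Ifi202b, which was absent on both knock-in arrays. Knock-in values are therefore a description, and no knock-in difference was tested for any member. On this platform a suffix f, s or r marks a probe set that may match related sequences or missed a design rule. Ifi204 has an f set and 2 r sets, called r set 1 and r set 2 here, and Ifi207 has an f set, so signal from close relatives is possible in them.

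The cells came from mice labelled NF-IL6 KI(LAP) (KI), NF-IL6 KO (KO) and wild type (WT), all with the strain label C57BL/6. NF-IL6 is another name of the transcription factor C/EBPβ (gene Cebpb), whose activating isoform is called LAP. The labels describe neither allele further, give no backcrossing to the labelled strain and do not say whether animals were pooled. A difference between genotypes, that of Ifi202b included, therefore cannot be told apart from one of strain background or of animals. Each genotype was measured after lipopolysaccharide (LPS) with interferon-γ and untreated, on 1 array each. The time of stimulation was 12 h for KI and KO cells and is not labelled for WT cells. Time and genotype therefore cannot be told apart where stimulated KI or KO cells are compared with stimulated WT cells.

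The p200 proteins, also called HIN-200 or PYHIN proteins, bind double-stranded DNA through HIN domains, and most of them also carry a pyrin domain through which they can join other pyrin proteins. Their genes lie next to each other on mouse chromosome 1 and are known as interferon-induced genes in macrophages and lymphoid cells. Aim2, which starts an inflammasome on cytosolic DNA, belongs to the same family.

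In the RefSeq annotation of GRCm38.p6 the members lie on chromosome 1 in the order Ifi209 (173630859 to 173647928), Ifi207 (173723424 to 173741831), Ifi204 (173747293 to 173767069) and Ifi202b (173962569 to 173982844). Promoter windows from RefSeq (250 bases before the annotated start and 50 after it) were at hand for 3 of the 4 members. They are shown because the members' responses to interferon-γ and LPS are compared below, and capitals mark every match to the motifs searched.
Ifi202b (chr1:173982795-173983094, minus strand): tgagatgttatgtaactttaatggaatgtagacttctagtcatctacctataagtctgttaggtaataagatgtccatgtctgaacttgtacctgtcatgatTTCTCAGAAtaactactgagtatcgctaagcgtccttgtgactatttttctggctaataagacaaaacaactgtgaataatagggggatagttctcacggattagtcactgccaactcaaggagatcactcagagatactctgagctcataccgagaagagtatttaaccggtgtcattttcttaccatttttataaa
Ifi207 (chr1:173741760-173742059, minus strand): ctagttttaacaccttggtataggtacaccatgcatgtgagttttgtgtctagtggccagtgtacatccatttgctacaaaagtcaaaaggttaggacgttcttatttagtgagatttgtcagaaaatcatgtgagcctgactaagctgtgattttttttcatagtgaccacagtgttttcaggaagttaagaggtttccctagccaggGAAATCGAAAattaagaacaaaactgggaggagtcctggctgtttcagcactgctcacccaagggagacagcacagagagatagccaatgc
Ifi209 (chr1:173630609-173630908, plus strand): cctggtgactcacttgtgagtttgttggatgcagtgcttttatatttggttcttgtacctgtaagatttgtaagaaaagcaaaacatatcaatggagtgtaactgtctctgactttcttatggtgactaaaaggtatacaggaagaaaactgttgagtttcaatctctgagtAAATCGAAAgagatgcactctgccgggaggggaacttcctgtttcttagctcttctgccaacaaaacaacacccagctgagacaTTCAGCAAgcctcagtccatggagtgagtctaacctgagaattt

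Both strands were searched for the core of the interferon-stimulated response element (GAAA, any 2 bases, GAAA), the interferon-γ-activated site (TTCNNNGAA) and a C/EBP site (TTGCNNAA). Ifi207 held GAAATCGAAA, with its first base 41 bases before the start, and Ifi202b held TTCTCAGAA, with its first base 148 bases before the start. Over all 14 windows of 12 p200 genes, the response element core was found in 10 windows of 9 genes, against 3.44% of 32851 windows of all genes. TTCNNNGAA was found in 1 of the 14, the Ifi202b window, and in 8.3% of all windows. TTGCNNAA was found in 6 of the 14, Ifi209 among them, and in 10.8% of all windows. The 9 letters AAATCGAAA were chosen after the sequences had been read and overlapped the response element in 7 genes. They occurred in 8 of the 14 windows, from 8 of the 12 genes, Ifi207 and Ifi209 included, against 0.125% of all windows. Related genes share descent, so these matches are not independent of each other, and a match describes letters, not a bound site.

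**Figure D1:**
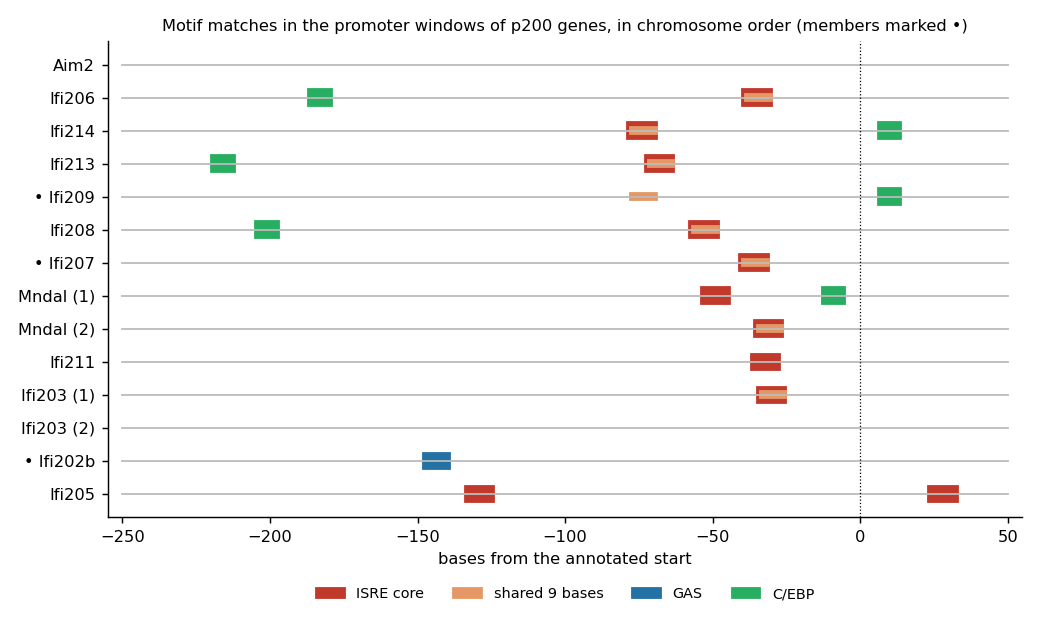
Motif matches in 14 promoter windows of 12 p200 genes, in chromosome order, by distance in bases from the annotated start (0); red is the interferon-stimulated response element core, orange the shared 9 bases, blue the interferon-γ-activated site and green the C/EBP site. Each of 9 genes has a red match before the start, Ifi205 has another after it, and the Ifi202b window holds the blue match alone.

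Across the arrays the median deposited signal ran from 131 to 185, and 55.7% to 65.8% of probe sets exceeded 98.0. This signal, the 40th percentile of all values, served as a floor to which lower values were set. The KI arrays were the lowest in both. Cebpb, the targeted gene, had signals of 5890 and 2284 in stimulated and untreated KI cells, 59.0 and 12.7 in KO cells and 9329 and 5492 in WT cells. All 9 macrophage markers measured were above the floor on all 6 arrays, among them Cd68, Lyz2 and Csf1r. Of 7 T-cell markers, Cd3e, Cd3d, Cd3g, Cd8a and Thy1 were under the floor on every array, and Cd4 was above it on all 6. Cd2, which was above it in untreated KO (247) and WT cells (275) alone, had 64.1 in untreated KI cells. In bulk RNA, fewer cells of a type and less RNA per cell cannot be told apart.

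Ifi202b encodes p202, which has HIN domains but no pyrin domain and is known in mice as an antagonist of Aim2. Its own probe set had signals of 1.0 in stimulated and 7.1 in untreated KI cells. In KO cells it had 3726 in the stimulated and 432 in the untreated state, and in WT cells 3719 and 934. Both KI arrays were thus under the floor, while all 4 other arrays were above it. Computed against the floor, the stimulated KI signal was at least 38.0-fold lower than that of KO and at least 37.9-fold lower than that of WT. In the untreated state it was at least 4.41-fold lower than KO and at least 9.53-fold lower than WT. A KI signal at least 2-fold lower than KO was found for 2.76% of probe sets in stimulated and 5.36% in untreated cells, and one at least 2-fold lower than WT for 4.92% and 10%.

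The other probe set with an Ifi202b symbol carries the suffix f and is shared with LOC100044068 in the platform annotation. It had signals of 14.6 and 3.1 in stimulated and untreated KI cells, 608 and 124 in KO cells, and 699 and 264 in WT cells. Both KI values were again under the floor, and the 4 other arrays were above it. The stimulated KI signal was at least 6.21-fold lower than KO and at least 7.13-fold lower than WT.

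The KI signals of Ifi202b were low against the rest of each array as well. On the stimulated KI array 0.0725% of the 12422 non-control probe sets had a lower signal, against 96.0% on both the stimulated KO and the stimulated WT array. On the untreated arrays it was 5.85% in KI, 69.4% in KO and 84.4% in WT. Of 9344 tested probe sets, 1700 were under the floor on both KI arrays, and 145 of these were above it on all 4 KO and WT arrays. Ranked by the lower of the stimulated KO and WT signals, the 1700 were led by Ifi202b (3719) and its shared probe set (608). A Pecam1 probe set, named after its value was seen, came next (392.3). Ifi202b was selected for its absence on the KI arrays, so its place in this order supports nothing.

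The gap between genotypes was measured as the lowest log2 signal of the 4 KO and WT arrays minus the highest of the 2 KI arrays. For Ifi202b it was 2.14 (rank 3 of 9344 probe sets), and for its shared probe set 0.34. A gap of at least 1 was found for 0.268% of probe sets (25). The Ifi202b gap was 0.78 with a floor at the 60th percentile and 3.78 with a floor at the 20th. The selection of Ifi202b used this contrast, so its rank supports nothing.

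**Figure D2:**
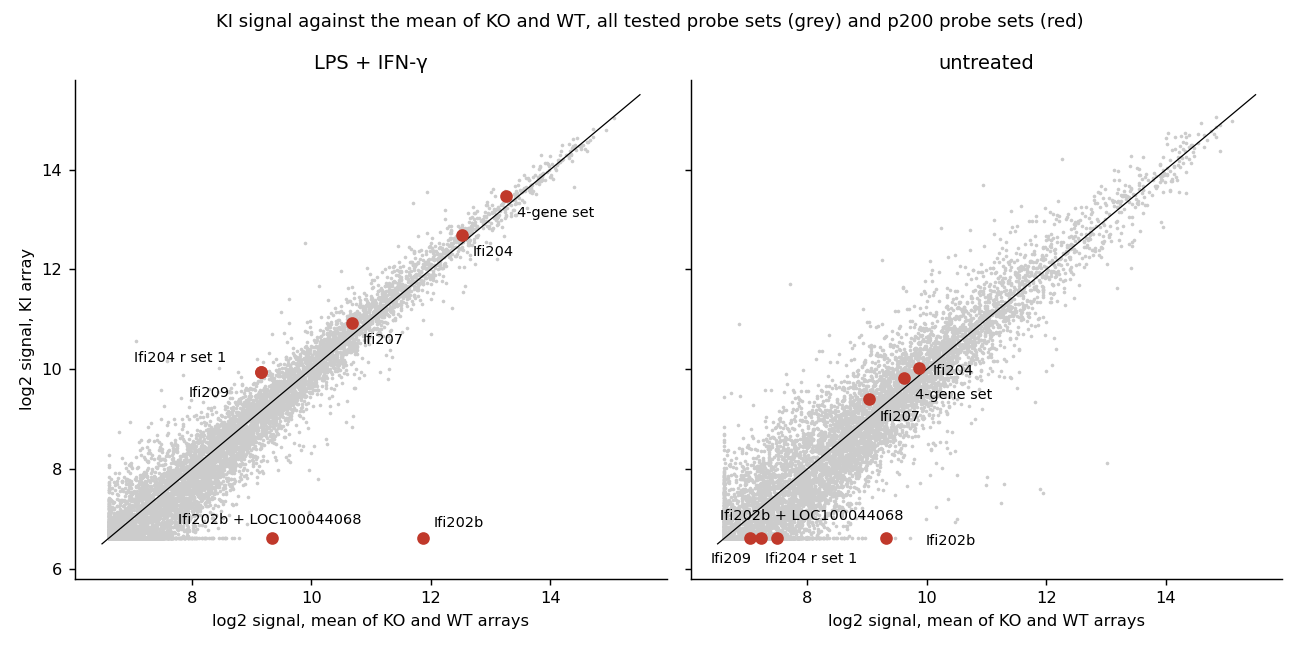
Log2 signal on the KI array (vertical) against the mean log2 signal of the KO and WT arrays (horizontal) for 9344 probe sets, stimulated at left and untreated at right; red points are p200 probe sets and the line marks equal signals. Both Ifi202b probe sets lie on the floor in KI cells in both states, while Ifi204 and Ifi207 lie near the line.

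Ifi204, Ifi207 and Ifi209 had stimulated KI signals above those of KO and WT. Among the 20 protein-coding genes annotated on either side of the 4 members, 8 had a probe set of their own and 5 were tested, and 0 of the 5 had a gap of at least 1. Fh1, the mitochondrial fumarase, was the only one of them above the floor on all 6 arrays, with 503 and 878 in KI, 643 and 1017 in KO and 702 and 1150 in WT cells. Crp, Apcs, Ackr1 and Mptx1 were under the floor on at least 3 arrays each and allow little comparison.

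Markers of B cells, which peritoneal preparations hold, were lower in sum on the KI arrays, but not each of them. The summed signal of 7 B-cell markers was 1081 and 1056 in stimulated and untreated KI cells, 1745 and 3544 in KO cells and 1793 and 3939 in WT cells. Of the 7, those above the floor numbered 6 and 6 in KI, 5 and 6 in KO and 5 and 6 in WT cells, in the same order. Cd79a, a defining marker, had 302 and 152 in KI, 644 and 1130 in KO and 910 and 1152 in WT cells, a gap of 1.09. Cd79b and Blk also had both KI signals below all 4 others, with gaps of 0.69 and 0.14. Ms4a1, Pax5 and Igll1 did not. Ms4a1 was still lowest in KI within each state, with 124.5 and 318.7 in KI, 296.5 and 795.5 in KO and 209.2 and 729.9 in WT cells. Pax5 had 146.2 and 132.9 in KI, 239.6 and 204.7 in KO and 64.5 and 245.5 in WT cells. Igll1 had 152 and 160 in KI, 51.5 and 157 in KO and 117 and 148 in WT cells. Cr2 was under the floor on every array. The KI arrays also had the lowest median signals, and the part of either in the Ifi202b values was not tested.

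In KO and WT cells Ifi202b was higher after stimulation. The ratio of the stimulated to the untreated signal was 8.62 in KO and 3.98 in WT cells, and no change could be measured under the floor in KI cells. The KO and WT cells differed in the untreated state, where the KO signal was 2.16-fold lower, and had close signals of 3726 and 3719 after stimulation. An untreated KO signal at least 2-fold lower than WT was found for 4.3% of probe sets. The shared probe set gave a ratio of 4.89 in KO and 2.65 in WT cells, and an untreated KO signal 2.12-fold lower than WT.

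In the limma fit of stimulation over the 3 genotypes, Ifi202b did not pass the test (mean log2 change 1.70, SE 0.59, limma adjusted p = 0.149). This fit holds both KI arrays at the floor, which lowers the mean change. The selection of Ifi202b used those KI values, so this outcome sets up no contrast with the other members. Without both KI arrays, a fit in which none of the members passed, the Ifi202b change was 2.55 (limma adjusted p = 0.127). The shared probe set did not pass either (mean log2 change 1.23, SE 0.48, limma adjusted p = 0.181).

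Ifi204 encodes p204, a DNA-binding pyrin protein known as a sensor of cytosolic DNA that acts upstream of STING in mouse macrophages. Its f set had signals of 6638 and 1041 in stimulated and untreated KI cells, 6534 and 1241 in KO cells, and 5261 and 697 in WT cells. Every stimulated array was above every untreated one. The ratio was 6.37 in KI, 5.26 in KO and 7.55 in WT cells. Ifi204 rose with stimulation (mean log2 change 2.66, SE 0.15, limma adjusted p = 0.00153).

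The r set 1 of Ifi204 had signals of 978 and 78.9 in KI, 594 and 144 in KO and 547 and 157 in WT cells. It also rose (mean log2 change 2.39, SE 0.37, limma adjusted p = 0.0226). Its untreated KI signal was under the floor, so that the ratio was at least 9.98 in KI, against 4.12 in KO and 3.50 in WT cells. The order of the genotypes therefore differed between both Ifi204 probe sets, WT being the highest by the f set and the lowest by r set 1. The r set 2 reached 101 in stimulated WT cells and was under the floor on the other 5 arrays, so it measured no response.

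A 4-gene probe set, which the platform assigns to Ifi204, Ifi205, Ifi211 and Mndal together, cannot be credited to 1 gene. It had signals of 11404 and 908 in KI, 10508 and 942 in KO and 9219 and 652 in WT cells. It rose (mean log2 change 3.65, SE 0.12, limma adjusted p = 0.000382), with ratios of 12.6 in KI, 11.2 in KO and 14.1 in WT cells. The genotypes lay in the same order as by the f set of Ifi204. Another shared probe set, assigned to Ifi203, its pseudogene Ifi203-ps and LOC100862473, had 1767 and 182 in KI, 1591 and 526 in KO and 813 and 308 in WT cells. It rose as well (mean log2 change 2.09, SE 0.41, limma adjusted p = 0.0391). None of the 12 other family names listed, Aim2 among them, had a probe set under that name alone. Pyhin1, 1 of these names, is a RefSeq synonym of the member Ifi209.

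Ifi207 encodes a further member with a pyrin and a HIN domain. Its probe set had signals of 1956 and 673 in stimulated and untreated KI cells, 1605 and 646 in KO cells and 1665 and 427 in WT cells. The stimulated signals of the genotypes lay within 1.22-fold of each other, and the groups of stimulated and untreated arrays did not overlap. The ratio was 2.91 in KI, 2.48 in KO and 3.90 in WT cells. Ifi207 rose with stimulation (mean log2 change 1.60, SE 0.18, limma adjusted p = 0.0104).

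Ifi209, for which RefSeq lists Pyhin1 and Ifix as synonyms, is another pyrin and HIN protein gene. Its probe set had signals of 990 and 67.6 in stimulated and untreated KI cells, 881 and 121 in KO cells and 369 and 145 in WT cells. The stimulated KI and KO signals were both above that of WT, KI by 2.68-fold and KO by 2.39-fold. Over all probe sets, 1.89% had a stimulated KI signal at least 2-fold higher than WT and 2.57% such a KO signal. The ratio of stimulated to untreated signal was at least 10.1 in KI, where the untreated signal was under the floor, 7.27 in KO and 2.55 in WT cells. Ifi209 rose with stimulation (mean log2 change 2.52, SE 0.44, limma adjusted p = 0.0304).

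**Figure D3:**
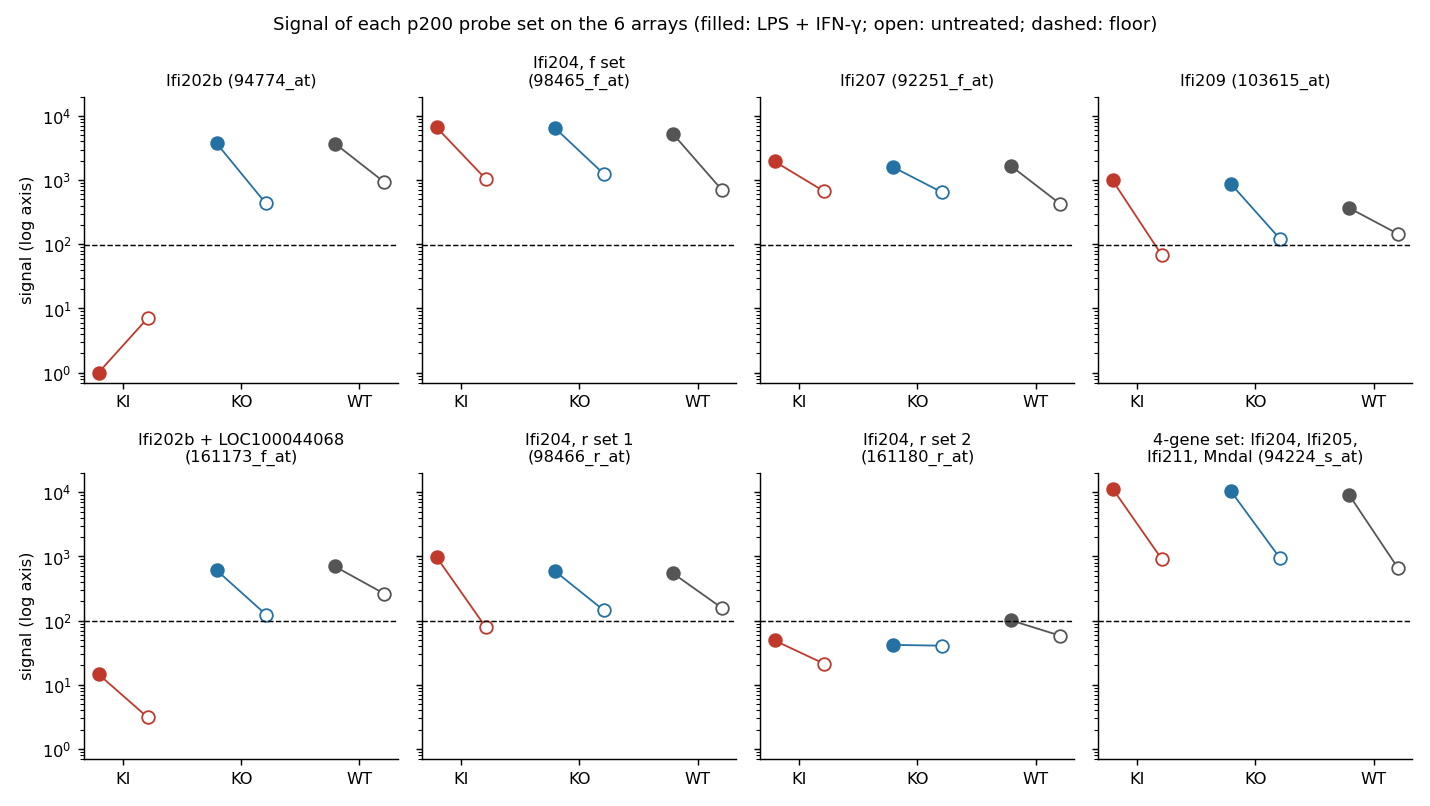
Signal (log axis) of the 8 probe sets on the 6 arrays, with filled points for LPS with interferon-γ, open points for untreated cells and a dashed line at the floor of 98.0; each point is 1 array and lines join the arrays of a genotype. Ifi202b lies under the floor in KI cells, while the stimulated points of Ifi207, Ifi209 and the f set and r set 1 of Ifi204 lie above every untreated point of the same probe set, and those of r set 2 do not.

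Of the 4 members, 3 rose with stimulation in the limma fit. Ifi202b, selected for KI signals that lie under the floor, did not pass. By probe set 5 of 8 rose and 0 fell. The 5 include the f set and r set 1 of Ifi204 and the 4-gene probe set, which are not independent of each other. Over all 9344 probe sets 5.03% rose and 6.01% fell (470 and 562). With arrays centred on their medians the split turned to 613 that rose and 372 that fell, as the median change of all probe sets moved by 0.12 on the log2 scale, from -0.12 to -0.0054, and Ifi204, Ifi207 and Ifi209 changed by 2.84, 1.78 and 2.73. For those 5 probe sets every stimulated array was above every untreated one, which held for 9.77% of all probe sets. Signals at least 2-fold higher after stimulation were seen for 3 of the 4 members in KI, 4 in KO and 4 in WT cells, against 5.58%, 6.54% and 8.54% of all probe sets in those genotypes. A rise of that size in all 3 genotypes was found for 5 of the 8 probe sets and for 3.26% of all. The fit had 2 residual degrees of freedom, and leaving out any 1 of the 6 arrays ended the calls of Ifi204, Ifi207 and Ifi209 (limma adjusted p from 0.089 to 0.351), with changes of 2.53 to 2.79, 1.43 to 1.75 and 2.11 to 3.10. Testing every probe set, with no filter on low signals, also ended these 3 calls (limma adjusted p = 0.0568, 0.0993 and 0.196).

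**Figure D4:**
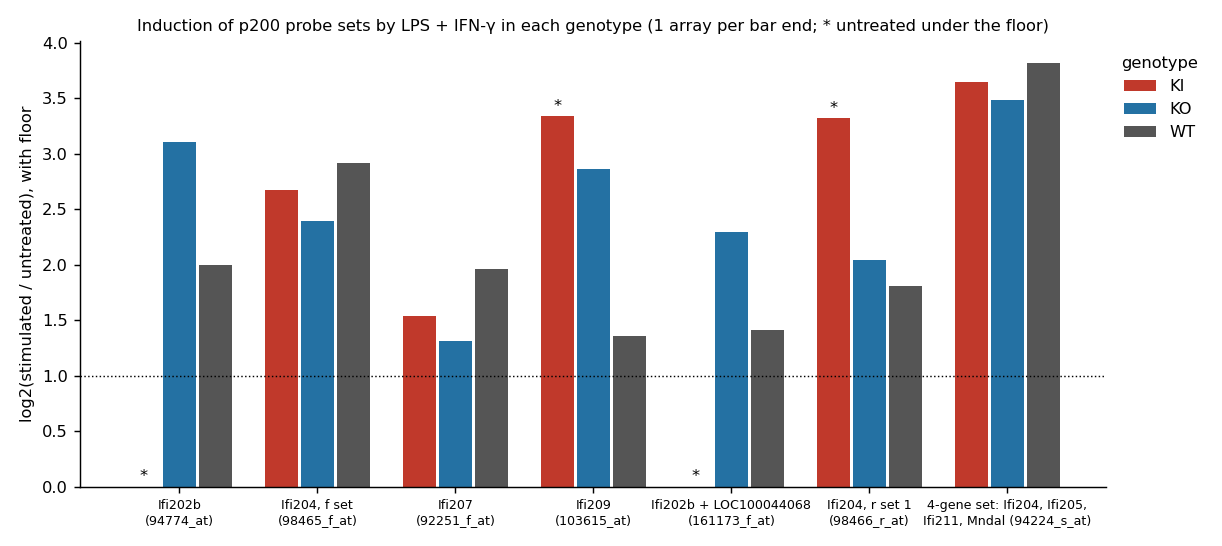
Log2 ratio of the stimulated to the untreated signal, with the floor, for 7 probe sets in KI, KO and WT cells; each bar rests on 2 arrays, asterisks mark an untreated signal under the floor and the dotted line marks a change of 1. The f set of Ifi204 and Ifi207 have their highest bar in WT cells, while Ifi209 has its lowest there and both Ifi202b probe sets have none in KI cells.

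The induction of the members differed in order between genotypes. By log2 ratio, Ifi209 was 1.51 higher in KO than in WT cells and Ifi202b 1.11 higher. A difference of at least 1 in that direction was found for 5.36% of probe sets. The differences of KO minus WT were -0.52 for the f set of Ifi204, 0.24 for its r set 1 and -0.65 for Ifi207. For Ifi209 the KO and WT cells differed after stimulation and had untreated signals of 121 and 145, while for Ifi202b they differed in the untreated state. These differences rest on single arrays and have no test.

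Over both states, KO minus WT did not pass the limma test for any of the 8 probe sets. The log2 differences were -0.55 for Ifi202b (SE 0.73, limma adjusted p = 0.769), 0.57 for Ifi204 (SE 0.18, limma adjusted p = 0.458), 0.27 for Ifi207 (SE 0.22, limma adjusted p = 0.634) and 0.50 for Ifi209 (SE 0.54, limma adjusted p = 0.716). In this limma contrast 0% of 9344 probe sets passed in either direction, and 946 had an unadjusted p under 0.05. Both KO signals of the f set of Ifi204 and of the 4-gene probe set were above the WT signal of the same state. For Ifi202b, Ifi207, Ifi209 and r set 1 of Ifi204 the order of KO and WT differed between states. The stimulated Ifi202b signals were close, at 3726 in KO and 3719 in WT cells.

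Likeness of pattern was measured as the mean absolute difference in log2 signal over the 6 arrays, each probe set centred on its own mean, among named probe sets that reached a signal of 531.8 (the 75th percentile) on at least 1 array. Nearest to Ifi204 were Nfkb2, an NF-κB subunit (0.113), Ehd1 (0.171) and Dck, deoxycytidine kinase (0.171). Nearest to Ifi207 were Agfg1 (0.055), Tnip1, an inhibitor of NF-κB signalling (0.057), and Dbnl (0.091). Nearest to Ifi209 were Ch25h, cholesterol 25-hydroxylase (0.134), Cd83, a maturation marker of dendritic cells (0.155), and Edn1, endothelin 1 (0.159). The stimulated KI and KO signals of all 3 were above that of WT, which their choice by likeness to Ifi209 largely fixed.

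No bright named gene came as close to Ifi202b. The nearest were Ccl8 (1.16), Hba-a1 (1.21) and Plac8 (1.22). Ccl8, a chemokine for monocytes, had 2547 and 236 in KI, 6152 and 928 in KO and 2224 and 1212 in WT cells, so that its stimulated KI signal was not under the floor. Among the members, Ifi204 and Ifi209 differed by 0.449, Ifi204 and Ifi207 by 0.528 and Ifi207 and Ifi209 by 0.66, while Ifi202b differed from each by 1.84 to 1.90. The selection of Ifi202b used its KI signals, which enter this measure, so its distances support nothing.

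The members were set beside lists of related genes. Of 19 measured type I interferon response genes, 15 rose and 0 fell (median log2 change 2.94, against -0.12 over all probe sets tested). Ifit2, Ifit1, Isg15, Mx1, Rsad2 and Ifit3 changed by 6.12, 5.87, 5.78, 5.13, 4.76 and 4.58, and Ifit3 had the lowest stimulated KI signal of the 6, at 2714. Of 16 genes of interferon signalling, 10 rose and 1 fell (median 1.36). Usp18, Socs1, Irf7, Socs3, Irf1 and Jak2 rose by 4.79, 4.29, 4.12, 3.88, 3.35 and 2.14, and Ifngr1, a chain of the interferon-γ receptor, fell by 1.75. None of the 35 genes of these 2 lists had a gap of at least 1 in the direction of Ifi202b, against 0.268% of all probe sets. The gap sets untreated KO and WT signals against the stimulated KI signal. A gene that rises in KI cells can hardly reach it, so this count says nothing about Ifi202b.

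Of 15 measured genes of DNA sensing and inflammasomes, 6 rose and 0 fell (median 0.50). Il1b rose by 5.26, Samhd1, a nucleotide hydrolase that limits DNA synthesis, by 2.59, Casp4 by 2.46, Il18 by 1.56, Casp1, the inflammasome protease, by 1.48 and the adaptor Myd88 by 0.88. Casp1 had signals of 3159 and 848 in KI, 3106 and 1108 in KO and 2376 and 1140 in WT cells. Of 20 tested genes listed for links to p200 proteins, as partners or as regulated genes, 3 rose and 1 fell (median 0.12). Mdm2, the ubiquitin ligase of p53, rose by 1.80, Cdkn1a, the cell cycle inhibitor p21, by 1.68 and Rbl1, a retinoblastoma relative, by 1.27, while Id3, an inhibitor of helix-loop-helix factors, fell by 2.85. Each of these lists was chosen with earlier results of these data known.

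**Figure D5:**
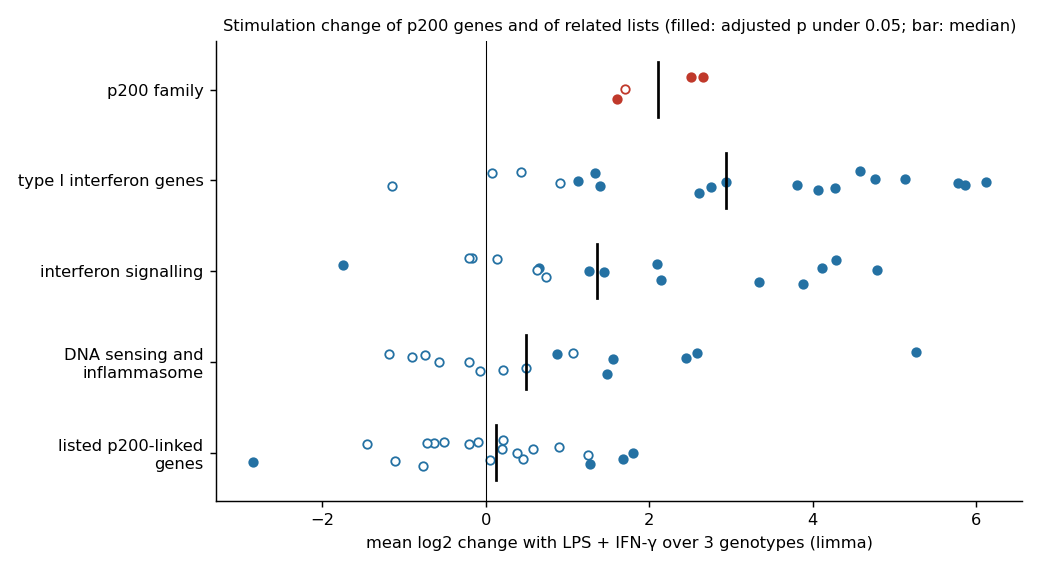
Mean log2 change with LPS and interferon-γ over 3 genotypes (limma) for the 4 p200 members and the tested genes of 4 related lists; filled points had an adjusted p under 0.05 and bars mark medians. The p200 members lie between 1.60 and 2.66, under the median of the type I interferon genes (2.94).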

How the data were processed

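RNA of peritoneal exudate cells was measured on 6 single-colour Affymetrix arrays, 1 for each of 3 genotypes in 2 states. The authors deposited 1 linear signal intensity per probe set; the submitters' processing notes name MAS5, and no version, target or detection call is stated in the sources used here. The trimmed means of the deposited intensities (lowest and highest 2% left out) ran from 500.3 to 500.4, so the arrays were already on 1 scale.

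Each array was brought to the same trimmed mean, values under the 40th percentile of all values (98.0) were raised to it, and log2 was taken. Of 12488 probe sets, 66 controls were left out, and 9344 of the other 12422 were above the floor on at least 1 array and were tested. Symbols came from the platform annotation; 10833 probe sets have 1 symbol, and 10817 of these matched RefSeq gene identifiers of GRCm38.p6 with 0 changed symbols. Where a gene has several probe sets, the one with the highest average log2 signal stands for it. Stimulation (with genotype as a block) and KO minus WT (with state in the model) were fitted over all 6 arrays in 1 additive model with limma 3.58.1 in R 4.3.3, with an intensity trend, 2 residual degrees of freedom and Benjamini-Hochberg adjustment over all 9344 probe sets at 0.05. With 1 array per group, its p-values measure how the response varied between genotypes, not the spread between animals or cultures. Differences between single arrays have no test and were called at 1 or more on the log2 scale. The number of arrays limits the precision of every value.

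The members, gene lists and rule for named genes were chosen with earlier results of these data known. The rule names all probe sets of the 4 members, up to 6 genes per list with the largest changes past the test, the 3 genes nearest to each member over the 6 arrays, the 5 genes with the largest gap between the KI arrays and the others in each direction, and the measured chromosomal neighbours. The fit was tested on simulated data. Other floors, no floor, quantile and median scaling, no filter, 1 probe set per gene, no trend, and leaving out arrays or genotypes were tried.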

Additional observations from a re-analysis of the deposited data

How the results depend on the processing

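Replicate numbers are absent from the labels, and the only pairing is that of the arrays of each genotype, which the stimulation fit holds as a block. Stimulation calls: 661 probe sets rose and 953 fell without a floor, 613 rose and 372 fell with median centring, and 49 rose and 20 fell without the filter on low signals. Without that filter limma's calls for Ifi204, Ifi207 and Ifi209 ended at changes of 2.66, 1.60 and 2.52 (limma adjusted p = 0.0568, 0.0993 and 0.196). The reason was not tested. With 1 array left out (1 residual degree of freedom), 0 to 15 rose and 0 fell, and the changes ran from 2.53 to 2.79 for Ifi204, 1.43 to 1.75 for Ifi207 and 2.11 to 3.10 for Ifi209, with every call of these 3 lost. Without both KI, KO or WT arrays, 13, 0 and 0 rose and 0 fell, with changes of 2.66, 2.79 and 2.53 for Ifi204, 1.64, 1.75 and 1.43 for Ifi207 and 2.11, 2.34 and 3.10 for Ifi209, again with no call; KO minus WT has no value there without the KO or the WT arrays. The calls of these 3 members held under the other floors, without a floor, with quantile or median scaling, with 1 probe set per gene and without the trend. The Ifi202b probe set passed under none of the settings (limma adjusted p from 0.0592 to 0.567), while its shared probe set passed in 1, without a floor (change 1.25, limma adjusted p = 0.035).

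KO minus WT gave 0 calls, and 1 lower with a floor at the 20th percentile, with quantile scaling and with 1 probe set per gene, 2 higher and 5 lower without a floor, and 0 to 3 higher and 0 to 495 lower with 1 array left out. The 495 came without the stimulated WT array, and the cause was not tested. The sign of KO minus WT was not settled for r set 1 of Ifi204 (-0.00064, against 0.059 with a floor at the 60th percentile, 0.0067 without a floor, 0.094 with quantile scaling, 0.11 with median centring and -0.44 to 0.44 with 1 array left out), nor, with 1 array left out, for Ifi209 (-0.37 to 1.37), Ifi202b (-1.61 to 0.50) and the shared Ifi202b probe set (-1.44 to 0.15). The Ifi202b gap was 3.78 and 0.78 with floors at the 20th and 60th percentiles, 3.57 without a floor, 2.01 with quantile scaling and 2.02 with median centring. Signals near the floor, such as those of r set 2 of Ifi204, limit what single arrays can show.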

Other observations

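Other genes also separated the KI arrays from all 4 KO and WT arrays, which is given without a test. Besides Ifi202b, the largest gaps with KI lower among bright named genes were those of Hba-a1, a haemoglobin chain (2.57 on the log2 scale), Chil3, a chitinase-like protein of alternatively activated macrophages (1.58), Igkv6-23, an immunoglobulin light-chain segment (1.56), and Hbb-b2, a haemoglobin chain (1.45). Hba-a1 had 141 and 128 in stimulated and untreated KI cells, 835 and 1158 in KO cells and 1207 and 1843 in WT cells, above the floor on every array. In the other direction the largest gaps were those of Cdkn1c, a cell cycle inhibitor (2.16), Gtf2f2 (1.43), Alas1, the first enzyme of haem synthesis (1.31), Slc9a3r1 (1.10) and Mmp9, a matrix protease (0.98). Cdkn1c had 1150 and 3363 in KI cells, 190 and 172 in KO cells and 195 and 257 in WT cells. None of these genes lies on chromosome 1, that of the p200 members, and their distance from Cebpb, the targeted gene, was not examined.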
